A study of Sus scrofa with 6 samples.

Results

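Genes of the fat cells that lie between muscle fibres, and genes of fatty acid synthesis, were examined in the longissimus dorsi, the long back muscle, of adipocyte-specific UCP1 knock-in (UCP1 KI) and wild-type (WT) pigs. They were 10 genes given by symbol, and all 10 were found among the 30476 Ensembl pig genes of the count matrix. The first 6, *ADIPOQ*, *FABP4*, *PPARG*, *PLIN1*, *CIDEC* and *LEP*, mark adipocytes, and the other 4, *SCD*, *FASN*, *ACACA* and *ELOVL6*, encode enzymes that make and modify fatty acids. RNA-seq was performed on 3 UCP1 KI pigs and 3 WT pigs, all 6 months old, with 1 library per pig and total counts between 30220951 and 35066624. The knock-in was made with CRISPR/Cas9 and is meant to express UCP1, the uncoupling protein of brown fat, in adipocytes. The promoter used, the sex of the pigs and their litters are not given in the sources used here. If the pigs of a group were related, the p-values below cover only the spread between these animals. No identifier carried the symbol *UCP1*, so the knock-in itself was not analysed here. Muscle fibre genes were abundant in each library, with *ACTA1*, the actin of the muscle filament, at 30308.7 to 55970.6 counts per 1000000 (CPM).

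Intramuscular fat is a scattered population of adipocytes in the connective tissue between fibres, and its amount differs between animals and between pieces of a muscle. Mature adipocytes store triglyceride in a large droplet coated by perilipin 1, secrete adiponectin and leptin, and depend on the nuclear receptor PPARγ. In pigs, adipose tissue rather than liver is the main site of fatty acid synthesis. Acetyl-CoA carboxylase forms malonyl-CoA, fatty acid synthase builds palmitate from it, ELOVL6 lengthens palmitate to stearate, and stearoyl-CoA desaturase turns stearate into oleate. A bulk library counts the RNA of the whole muscle piece, so fewer adipocytes and less RNA per adipocyte cannot be told apart.

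The comparison asked whether these genes differed between UCP1 KI and WT muscle. None of the 10 genes was called, and at TMM-scaled levels for none were all UCP1 KI pigs on one side of all WT pigs. Calls needed an unadjusted p under 0.05 in edgeR's quasi-likelihood test together with a log2 fold change of more than 0.5 in size, limits that 1097 (8.19%) of the 13402 genes tested passed. Groups without overlap were seen in 15.3% of the genes tested. With library size only, a scaling looked at for overlap after the data were seen, *FASN* was without overlap, as were 14.6% of the genes tested. What stood out was a single animal. WT replicate 2 had the highest level of *ADIPOQ*, *FABP4*, *PLIN1*, *CIDEC* and *LEP*, whereas it was the highest pig for 18.3% of all genes tested, and for 5.69% with library size only, where the same 5 members were highest in it. Of the 4 lipogenic enzymes, 0 were highest in WT replicate 2. At TMM-scaled levels it was the next highest pig for *SCD* and *ELOVL6*. The mean of the 4 on the log2 scale, each centred on its own mean, was highest in it, at 0.37. *LEP* was too low for the filter on counts, so that 9 of the 10 genes were tested.

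**Figure D1:**
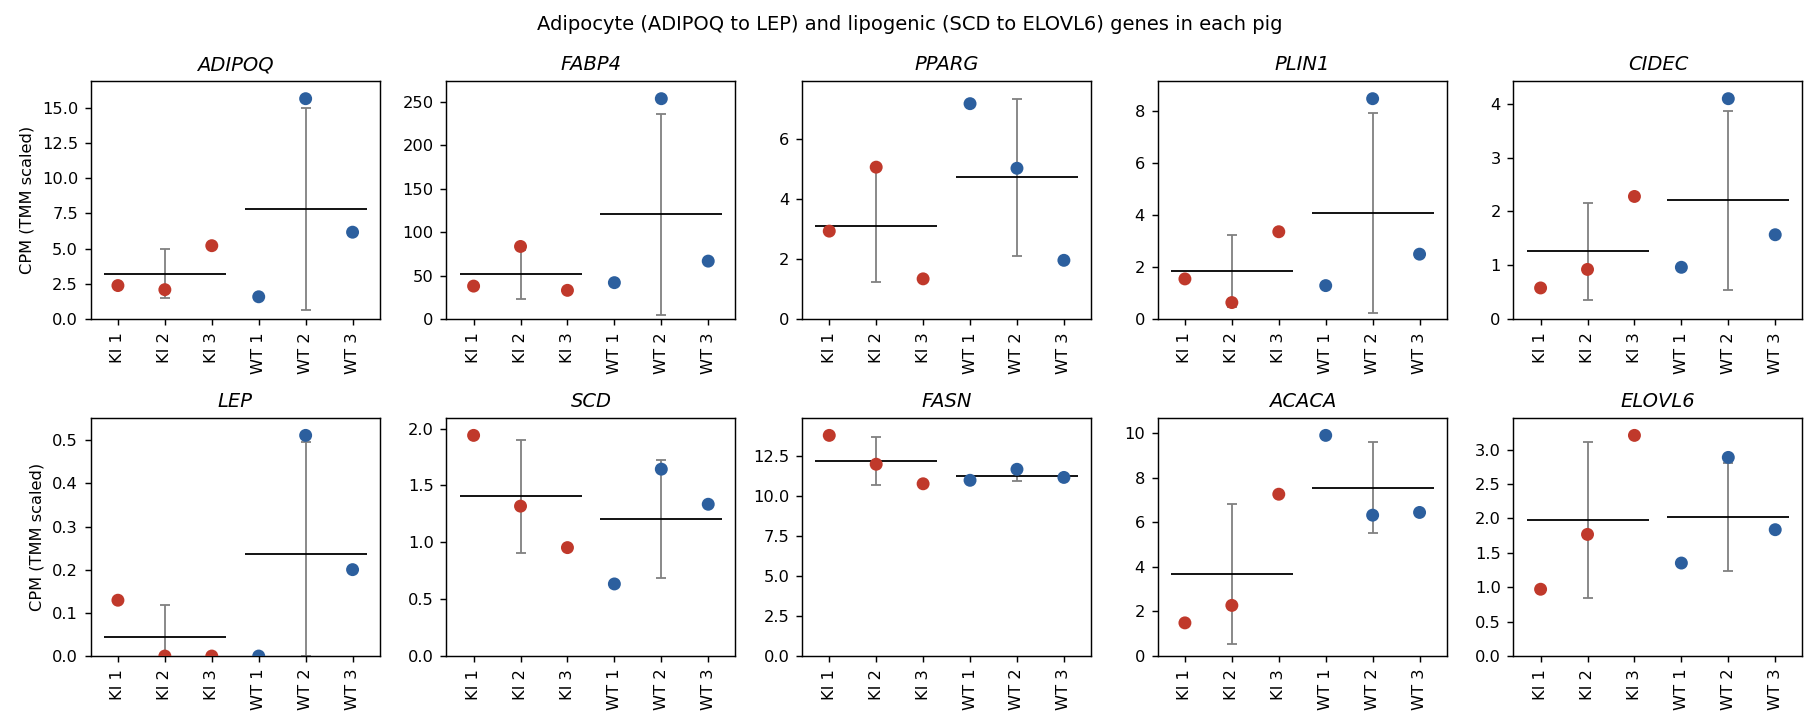
CPM of each gene (vertical axes, linear from 0, TMM scaled) in the 3 UCP1 KI pigs (red) and the 3 WT pigs (blue), with the group mean as a black line and ± SD as a grey bar, cut at 0. WT replicate 2 is the highest pig in the panels of *ADIPOQ*, *FABP4*, *PLIN1*, *CIDEC* and *LEP*, and *FASN* lies between 10.8 and 13.8 CPM in all pigs.

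*ADIPOQ* (ENSSSCG00000039103, chr13:124633906-124646237 in the RefSeq annotation of Sscrofa11.1, the build that the submitters' processing notes name) encodes adiponectin, a hormone made almost only by adipocytes. It was measured at 2.39, 2.10 and 5.22 CPM in UCP1 KI replicates 1 to 3 and at 1.60, 15.6 and 6.17 CPM in WT replicates 1 to 3, from 58 to 428 counts per pig. The lowest and the highest animal were thus both WT, 9.78-fold apart. The UCP1 KI mean was 3.24 ± 1.72 CPM (SD, n = 3), and the WT mean, with far more spread, was 7.80 ± 7.16 CPM (SD, n = 3). The log2 fold change of UCP1 KI against WT was -1.26 (standard error 0.75), with an adjusted p of 0.682 from edgeR after Benjamini-Hochberg adjustment. Without WT replicate 2 it was -0.26. Without WT replicate 1 it was -1.77 and passed the limits, at an unadjusted p of 0.0187 and an adjusted p of 0.608 from edgeR.

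*FABP4* (ENSSSCG00000040681, chr4:55096400-55101209), the fatty acid carrier of adipocytes, is also made by endothelial cells of small vessels. Its level was 38.2, 83.7 and 33.3 CPM in the UCP1 KI animals and 42.1, 253 and 66.8 CPM in WT pigs. WT replicate 2 was at 3.03 times the next highest pig, UCP1 KI replicate 2. Each of the other 4 animals lay between 33.3 and 66.8 CPM, 2 from each group. Of the 6 endothelial markers that could be tested 1 was called, *TEK*, higher in UCP1 KI pigs at a log2 fold change of 1.20, the lowest being *ESAM* at -0.04. Their summed level in WT replicate 2, 520.9 CPM, lay inside the range of 324 to 639 CPM over all pigs. The top of that range was UCP1 KI replicate 2. The part of endothelial cells in the *FABP4* values was not tested. *FABP4* had a log2 fold change of -1.22 with a standard error of 0.69 (edgeR, adjusted p = 0.665), and of -0.08 without WT replicate 2. Leaving out WT replicate 1 instead gave -1.65, which passed the limits at an unadjusted p of 0.0439 and an adjusted p of 0.628 from edgeR.

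The proteins of the fat droplet followed the order of *ADIPOQ* in part. *PLIN1* (ENSSSCG00000001844, chr7:55237517-55250797), which coats the droplet and controls access of lipases, was at 1.55, 0.645 and 3.36 CPM in the UCP1 KI animals and at 1.30, 8.47 and 2.50 CPM in WT pigs. *CIDEC* (ENSSSCG00000011557, chr13:66141836-66149801), which fuses small droplets into a large one, was at 0.582, 0.926 and 2.28 CPM against 0.965, 4.09 and 1.57 CPM. For *ADIPOQ*, *PLIN1* and *CIDEC* alike, WT replicate 2 was highest, and UCP1 KI replicate 3 and WT replicate 3 took the next places in either order. UCP1 KI replicates 1 and 2 and WT replicate 1 held the lower places for all 3 genes. The log2 fold changes were -1.13 (standard error 0.80) for *PLIN1* and -0.80 (standard error 0.70) for *CIDEC*, and edgeR gave adjusted p values of 0.719 and 0.771. Without WT replicate 2 they were -0.03 and 0.00042. Counts of *CIDEC* were between 18 and 112, and the annotation places a long non-coding RNA gene across each of the 2 loci, whose reads could not be told apart because the strand of the libraries is not stated.

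*LEP* (ENSSSCG00000040464, chr18:20106867-20124071) encodes leptin, the hormone that reports fat mass. It was counted 4, 0 and 0 times in the UCP1 KI animals, against 0, 14 and 6 times in WT animals. A count of 0 allows up to 3 counts, which is between 0.0795 and 0.110 CPM in these libraries and covers counting error only. Counts above 4 were thus found in WT replicates 2 and 3, and WT replicate 1 had no count, as UCP1 KI replicates 2 and 3. In a fit of the genes with any count at all, *LEP* had a log2 fold change of -2.38 (edgeR, unadjusted p = 0.236) and was not called. Whether this lay in the depth or in the spread between pigs was not tested.

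*PPARG* (ENSSSCG00000011579, chr13:68301566-68433951), the receptor that drives fat cell differentiation, ordered the pigs in another way. It was at 2.94, 5.08 and 1.35 CPM in the UCP1 KI animals and at 7.19, 5.04 and 1.97 CPM in WT pigs. WT replicate 1, the lowest pig for *ADIPOQ*, was the highest for *PPARG*, and WT replicate 2 lay beside UCP1 KI replicate 2. The log2 fold change of *PPARG* was -0.60 with a standard error of 0.60 (edgeR, adjusted p = 0.798) and ranged from -1.15 without UCP1 KI replicate 2 to -0.17 without WT replicate 1. Leaving out WT replicate 2 gave -0.56.

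**Figure D2:**
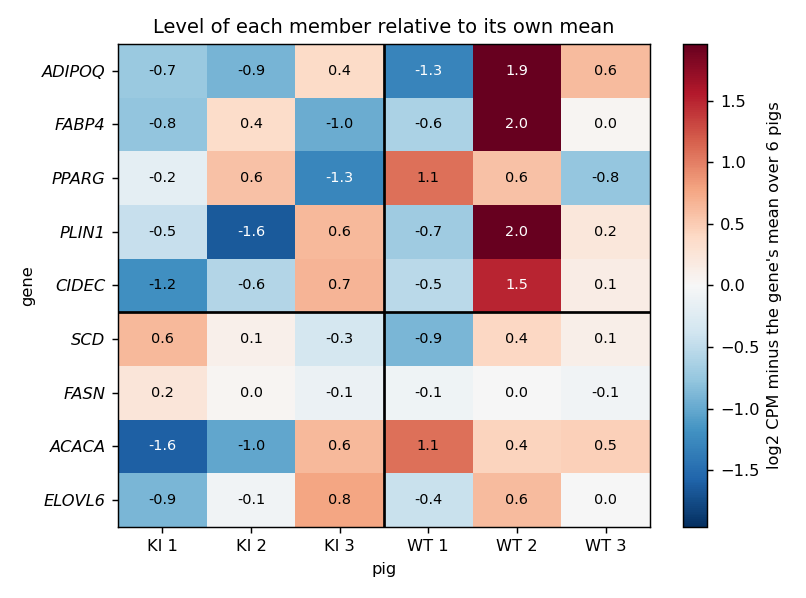
Level of the 9 tested genes in each pig as log2 CPM minus the mean of that gene over the 6 pigs (color scale and printed values), with UCP1 KI pigs left of the vertical line, and adipocyte genes above the horizontal line. WT replicate 2 stands at 1.5 to 2.0 above the mean for *ADIPOQ*, *FABP4*, *PLIN1* and *CIDEC*, at 0.6 for *PPARG*, and between 0.0 and 0.6 for the lipogenic genes.

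Of the lipogenic enzymes, *FASN* (ENSSSCG00000029944, chr12:922405-937560) had the smallest span over the pigs among the 9 tested genes. Its level was 13.8, 12.0 and 10.8 CPM in the UCP1 KI animals and 11.0, 11.7 and 11.2 CPM in WT pigs, from 320 to 428 counts per pig. The highest and the lowest animal, both UCP1 KI, were 1.28-fold apart, and WT replicate 2 was at 1.05 times the median of the other 5 pigs. The log2 fold change was 0.11 (standard error 0.22) and stayed between 0.02 and 0.19 with each pig left out. With library size only it was 0.36 and not called, and the median of all genes tested was 0.24 with that scaling. The levels were then 13.1, 14.2 and 12.6 CPM in the UCP1 KI animals against 11.7, 9.13 and 10.3 CPM in WT animals. The groups were thus apart.

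*ACACA* (ENSSSCG00000017694, chr12:38580916-38875067), the cytosolic acetyl-CoA carboxylase that commits carbon to fatty acid synthesis, showed the largest difference among the enzymes. It was at 1.49, 2.27 and 7.26 CPM in the UCP1 KI animals and at 9.90, 6.32 and 6.44 CPM in WT pigs. UCP1 KI replicates 1 and 2 were below all WT pigs, while UCP1 KI replicate 3 was above WT replicates 2 and 3. The UCP1 KI mean was 3.67 ± 3.13 CPM (SD, n = 3), the WT mean was 7.55 ± 2.03 CPM (SD, n = 3), and the log2 fold change equalled -1.04 (standard error 0.58, adjusted p = 0.662 from edgeR). Without UCP1 KI replicate 3 it was -2.01 (standard error 0.40) and passed the limits at an unadjusted p of 0.00165 in edgeR's quasi-likelihood test, although its adjusted p was 0.407. With each of the other pigs left out *ACACA* lay between -1.15 (without WT replicate 2) and -0.66 (without UCP1 KI replicate 1) and was not called. The annotation has a protein-coding gene, *C12H17orf78*, that overlaps the *ACACA* locus.

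*SCD* (ENSSSCG00000010554, chr14:111461560-111478033), the desaturase that makes oleate, was at 1.94, 1.32 and 0.954 CPM in the UCP1 KI animals and at 0.634, 1.64 and 1.33 CPM in WT pigs. The highest pig was UCP1 KI replicate 1 and the lowest WT replicate 1, with WT replicates 2 and 3 above UCP1 KI replicates 2 and 3 between them, and counts lay between 23 and 60. Its log2 fold change was 0.22 (standard error 0.51) and turned negative when UCP1 KI replicate 1 (-0.08) or WT replicate 1 (-0.09) was left out. *ELOVL6* (ENSSSCG00000036236, chr8:112038670-112190079), the elongase of palmitate, was at 0.970, 1.77 and 3.21 CPM in the UCP1 KI animals and at 1.35, 2.89 and 1.84 CPM in WT pigs. The UCP1 KI pigs thus held both ends of the range, a long non-coding RNA gene overlaps this locus too, and the log2 fold change was -0.03 (standard error 0.52). Scaling by library size only gave 0.33, while the fits that dropped UCP1 KI replicate 1 and WT replicate 2 gave 0.30 and 0.32. Adjusted p values from edgeR were 0.905 for *FASN*, 0.915 for *SCD* and 0.991 for *ELOVL6*.

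Across the 10 genes, two-sided exact permutation tests of log2(CPM + 1) gave p values from 0.3 for *ACACA* to 0.9 for *ELOVL6*, and 3 pigs against 3 cannot go below 0.1. An adjusted p under 0.05 was reached by 0 of the 9 tested genes in edgeR and by 0 in DESeq2, and an unadjusted p under 0.05 also by 0 with either tool. Over all genes, edgeR gave 0 and DESeq2 127 with such an adjusted p, and 1100 and 1321 with such an unadjusted p. The 5 tested adipocyte genes all had log2 fold changes below 0 with a median of -1.13, the median of all genes tested being -0.02. Without WT replicate 2 this median was -0.08. The 4 lipogenic genes had a median of 0.04, with 2 above 0 and 2 below 0, and one of 0.23 without WT replicate 2. The mean of the tested adipocyte genes on the log2 scale, each centred on its own mean, was -0.67, -0.44 and -0.11 in the UCP1 KI animals, against -0.41, 1.58 and 0.05 in WT animals. The same mean over the lipogenic genes was -0.41, -0.24 and 0.24 against -0.08, 0.37 and 0.13. The lipogenic mean minus the adipocyte mean therefore lay between 0.07 and 0.35 in 5 pigs and at -1.22 in WT replicate 2.

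**Figure D3:**
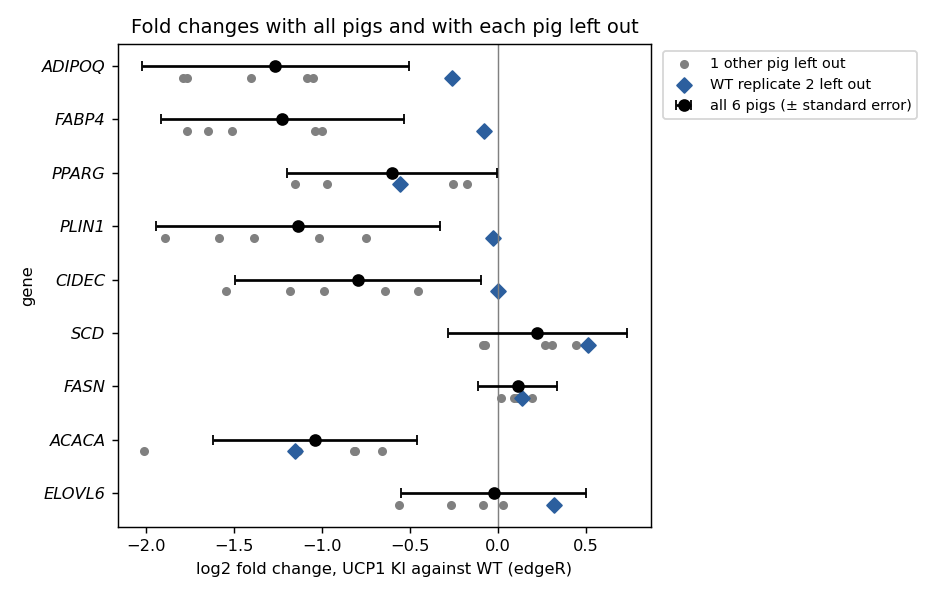
Log2 fold change of UCP1 KI against WT (horizontal axis, edgeR) for the 9 tested genes with all pigs (black, ± standard error), with WT replicate 2 left out (blue diamonds) and with each of the other pigs left out (grey). Without WT replicate 2, *FABP4*, *PLIN1* and *CIDEC* lie between -0.08 and 0.00042 and *ADIPOQ* lies at -0.26, while *ACACA* lies at -1.15.

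WT replicate 2 also stood apart as a library. Its 20 most abundant genes held 56.5% of the counts, against 39.0% to 44.8% in the other pigs, and its TMM factor of 0.781 was the smallest. At TMM-scaled levels, 7 of 8 fibroblast markers and 4 of 6 markers of smooth muscle and pericytes were highest there, against 18.3% of all genes tested. It was 1 of 5 for fibres, 1 of 6 for endothelial cells and 1 of 8 for macrophages. For lymphocytes it was 0 of 5, for red blood cells 0 of 3 and for Schwann cells 2 of 5. Raw counts of *DCN*, *LUM* and *MFAP5* were higher in WT replicate 1, at 4478, 1492 and 871 against 3679, 1203 and 756. Summed levels of the fibroblast markers were 263 to 456 CPM in the UCP1 KI animals and 762 to 1227 CPM in WT pigs, the last value in WT replicate 2. The summed smooth muscle and pericyte markers were 326 to 479 CPM and 426 to 932 CPM, again highest in WT replicate 2. None of the defining markers of these lists was at 0 in any pig. Of the fibroblast list, *COL1A1*, *COL1A2*, *COL3A1* and *LUM*, which encode matrix proteins, were called lower in UCP1 KI pigs, at log2 fold changes of -1.86, -1.70, -1.57 and -0.57. The other 4 markers, *MFAP5* (-0.49), *DCN* (-0.39), *FBLN1* (0.10) and *DPT* (0.17), were not called, and without WT replicate 2 the list had 2 calls. The part of this library and of these cells in the values of the adipocyte genes was not tested.

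Among 29 other genes of adipocytes, 24 had an identifier and 19 were tested, with 2 called higher and 2 called lower in UCP1 KI pigs, 7 at log2 fold changes above 0 and 12 below, and a median of -0.04 (0.05 without WT replicate 2). Among the 4 called genes, WT replicate 2 was the highest pig for *CFD* alone, at TMM-scaled levels. Raw counts of *CFD* were 5979 in WT replicate 1 and 5490 in WT replicate 2. *LIPE*, the hormone-sensitive lipase, was at 23.4, 44.2 and 42.5 CPM in the UCP1 KI animals and 23.0, 15.1 and 12.5 CPM in WT pigs. The groups did not overlap at TMM-scaled levels. With library size only they overlapped, at 722 of 32641489 counts in UCP1 KI replicate 1 and 834 of 34028215 in WT replicate 1. The difference of 1.12 on the log2 scale (standard error 0.35, unadjusted p = 0.0126 and adjusted p = 0.583 from edgeR) kept its call with each pig left out. *PNPLA2*, the lipase of the first step of triglyceride breakdown, had a log2 fold change of 0.57 and was called in 1 of the 6 fits with a pig left out. Its groups did not overlap at TMM-scaled levels. With library size only they overlapped, at 6796 of 32641489 counts in UCP1 KI replicate 1 and 7143 of 34028215 in WT replicate 1. Both lipases also act in muscle fibres. *CFD*, which encodes the adipokine adipsin, was lower in UCP1 KI pigs, at 90.6, 90.1 and 111 CPM against 165, 200.5 and 162 CPM. The difference of -0.85 on the log2 scale (standard error 0.23, unadjusted p = 0.00655 from edgeR) was called with each pig left out but not with library size only. *SLC7A10*, an amino acid transporter, was counted 10, 0 and 4 times in the UCP1 KI animals, against 32, 19 and 41 times in WT animals, a log2 fold change of -2.78, and was called in 3 of those 6 fits.

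Some other adipocyte genes, chosen here after their values were seen, were highest in WT replicate 2 like *ADIPOQ*. *TRARG1*, a regulator of the insulin-responsive glucose transporter, was at 1.03, 0.841 and 3.15 CPM in the UCP1 KI animals and 1.05, 13.0 and 4.44 CPM in WT pigs. *THRSP*, a protein tied to fatty acid synthesis in fat, was at 2.26 CPM in WT replicate 2, 2.51 times the next highest pig. At TMM-scaled levels, 7 of the 19 tested genes of this list were highest in WT replicate 2, against 18.3% of all genes tested. Of these, *CEBPA*, *CFD* and *MEST* had more raw counts in another pig. Another 3 genes were lowest in WT replicate 2. These were *PLIN4*, a droplet coat protein that muscle also makes, at 33.4 CPM against 53.9 to 106 CPM in the other pigs, *G0S2*, an inhibitor of *PNPLA2*, at 1.13 CPM against 2.62 to 6.27 CPM, and *PNPLA2* itself. *RETN* and *ACVR1C* had no counts in any library, and *ADRB3* had counts in WT replicate 2 alone.

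Of 33 further genes of fatty acid and triglyceride synthesis, 29 were tested, and their median log2 fold change was 0.03, with 15 above 0 and 14 below. *HSD17B12*, the ketoreductase of fatty acid elongation, was called higher, at 8.09, 30.1 and 7.84 CPM in the UCP1 KI animals and 2.73, 3.54 and 7.47 CPM in WT pigs. The log2 fold change, 1.74, was 0.80 without UCP1 KI replicate 2, and the call was lost without that pig and without WT replicate 1 or 2. *HACD1*, a dehydratase of the same cycle with a role in muscle, was called lower at -1.09 and was called in 2 of 6 fits with a pig left out. The remaining 27 genes did not pass the limits.

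Of 16 tested regulators of lipogenesis, 3 were called higher in the UCP1 KI animals and 0 lower, with a median log2 fold change of 0.24. *NR1H3*, the liver X receptor alpha that senses oxysterols, was at 13.4, 12.3 and 9.93 CPM in the UCP1 KI animals and 4.71, 4.67 and 0.968 CPM in WT pigs. *FOXO1*, the insulin-regulated transcription factor, was at 46.3, 68.0 and 85.6 CPM against 21.1, 27.8 and 38.4 CPM. Log2 fold changes were 1.78 (standard error 0.55) and 1.20 (standard error 0.33), and both genes were called with each pig left out. *MID1IP1*, a protein that promotes polymers of acetyl-CoA carboxylase, had a log2 fold change of 0.93 and was called in 2 of those 6 fits. *SREBF1*, which encodes the main transcription factor of lipogenesis, had no overlap between the groups, at 4.99 to 7.42 CPM against 3.98 to 4.47 CPM, but was not called at a log2 fold change of 0.45. The lowest of the list was *INSIG1*, an anchor that holds SREBP in the endoplasmic reticulum, at -0.59.

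Genes of adipocyte precursors and of differentiation had a median log2 fold change of -0.36 over 14 tested genes, 1 called higher and 1 lower. *CEBPD*, an early factor of adipogenesis that also responds to stress hormones, was at 110.0, 91.2 and 118 CPM in the UCP1 KI animals and 17.6, 39.0 and 24.1 CPM in the WT animals, and its log2 fold change was 1.98 (standard error 0.33). *KLF4*, another early factor that is also found in vessels, was at 46.0, 34.8 and 37.3 CPM against 110.1, 99.0 and 59.8 CPM, a log2 fold change of -1.19 (standard error 0.29). Both were called with each pig left out. *DLK1*, a marker of preadipocytes, had the lowest log2 fold change, -1.65 (standard error 1.10), and was not called. *PDGFRA*, the receptor that marks the progenitors of muscle fat, was at -0.08. Of 18 thermogenic genes 13 had an identifier and 11 were tested. Among these 11, 0 were called in edgeR, 0 in DESeq2 and 0 had an unadjusted p under 0.05. *ATP2A2*, a calcium pump, was the highest at 0.41 and *PRDM16*, a factor of brown fat, the lowest at -1.08. *ELOVL3*, which is also on the synthesis list, was below the filter, with 6, 5 and 5 counts in the UCP1 KI animals and 0 in each WT animal. Of 9 tested droplet and lipolysis genes, *ABHD5*, the co-activator of *PNPLA2*, was called higher at 2.44, but was at 0.25 without UCP1 KI replicate 2, which had 37.0 CPM against 1.38 to 4.95 CPM in the other pigs. *FITM1*, a protein of droplet formation in muscle, was the lowest at -0.56.

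**Figure D4:**
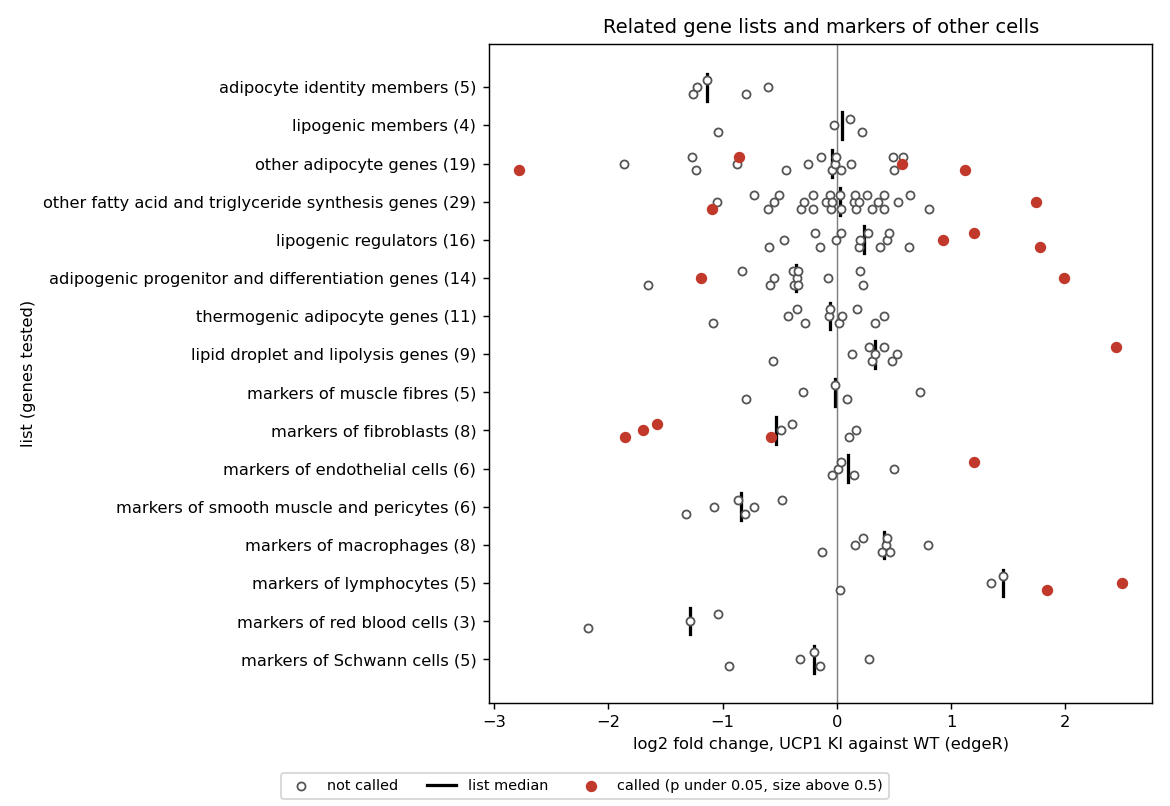
Log2 fold change of UCP1 KI against WT (horizontal axis, edgeR) for each tested gene of the lists, with the number tested in parentheses, called genes in red and the list median as a black bar. The adipocyte identity genes have a median of -1.13 with 0 called, and the lipogenic regulators have 3 genes called higher.

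Markers of the other cells in the muscle piece were measured beside these lists. In edgeR, 0 markers of fibres, smooth muscle and pericytes, macrophages, red blood cells and Schwann cells were called, and 0 had an unadjusted p under 0.05, whereas DESeq2 called 1 fibre marker, 1 smooth muscle marker and 2 red blood cell markers. Fibre markers had a median log2 fold change of -0.01 over 5 tested genes, from -0.79 for *TNNT3* to 0.72 for *DES*. All 6 smooth muscle and pericyte markers were below 0, from -1.32 for *MYH11* to -0.48 for *RGS5*, and 4 of them were called without WT replicate 3. Of 8 macrophage markers 7 were above 0, from -0.13 for *AIF1* to 0.80 for *CD163*. Of 5 tested lymphocyte markers *CD2* and *CD3E* were called higher, at 2.50 and 1.84, and *CD79A* was the lowest at 0.02. *CD2* was at 3.46, 8.19 and 0.715 CPM in the UCP1 KI animals against 0.534 to 0.910 CPM in WT animals, and the lymphocyte list had 0 calls without UCP1 KI replicate 2 or WT replicate 3, 1 without WT replicate 1 or 2, and 4 without UCP1 KI replicate 3. The 3 red blood cell markers were all below 0, from -2.18 for *AHSP* to -1.04 for *ALAS2*, and 1 of them was called without UCP1 KI replicate 1 or 2. The 5 Schwann cell markers had a median of -0.20. In the fit with WT replicate 2 left out, the other adipocyte genes had 3 calls in place of 4, the regulators 2 in place of 3 and the synthesis genes 0 in place of 2.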

How the data were processed

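The data were RNA-seq libraries of the longissimus dorsi, 1 each from 3 UCP1 KI and 3 WT pigs, with total counts of 30220951 to 35066624. Per the labels and the study's methods, reads were trimmed with Trimmomatic 0.36, mapped with HISAT2 2.0 and quantified with StringTie 1.3.3b, and the submitters' processing notes name the build Sscrofa11.1. The authors deposited raw counts per Ensembl gene, without normalization, and 0 columns were left unused. The annotation release and the counting program are not given in the sources used here.

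For the tests, edgeR 4.0.16 under R 4.3.3 was used. After filterByExpr and TMM scaling, a quasi-likelihood test of condition alone was run two-sided, with Benjamini-Hochberg adjustment over 13402 genes. CPM values use the totals over these genes times the TMM factors. A standard error is the size of the log2 fold change divided by the square root of F. Log2 levels over pigs used a prior count of 2. The procedure was tested on simulated data. DESeq2 1.42.0, other scaling and filters, a replicate block and leaving out each pig served as alternatives.

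The members and lists were chosen with earlier results of these data known, and the study's call limits were used. Named genes were all members, the called, highest and lowest genes of each other list, and genes with the most similar pattern, of which a few are not reported here. *TRARG1*, *THRSP*, *PLIN4*, *G0S2*, *CEBPA*, *MEST*, *SREBF1*, *PDGFRA*, *ACTA1*, *MFAP5*, *DCN*, *FBLN1*, *ELOVL3*, *RETN*, *ACVR1C* and *ADRB3* were named outside this rule, after their values were seen. Gene symbols came from a table that paired 14864 identifiers. Since exon lengths were not used here, levels were not compared between genes.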

Additional observations from a re-analysis of the deposited data

How the results depend on the processing

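With 0 of the 10 genes called, the count was 1 with a replicate block (*FABP4*, at -0.92) and ranged from 0 to 2 with each pig left out (2 without WT replicate 1, 1 without UCP1 KI replicate 3). Log2 fold changes changed sign for *CIDEC* (0.00042 without WT replicate 2), for *SCD* (-0.08 when UCP1 KI replicate 1 was left out, and from -0.0872 when WT replicate 1 was left out to 0.51 when WT replicate 2 was), and for *ELOVL6* (0.33 with library size only, 0.0019 with all genes with any count, and from -0.56 without UCP1 KI replicate 3 to 0.32 without WT replicate 2). *CIDEC* reached -1.54 without UCP1 KI replicate 3. The cause was not tested. In an alternative chosen after seeing the data, library size only left 1 of the 10 genes (*FASN*) without overlap, in place of 0. With that scaling, the median of all genes moved up by 0.25 on the log2 scale, and calls split into 929 higher and 195 lower, in place of 515 and 582. Over all genes, 1097 calls became 678 without UCP1 KI replicate 2, 718 without WT replicate 2, at most 1541 with a pig left out, and 0 at an adjusted p under 0.05, where every list also had 0 calls. With a pig left out, calls ranged from 3 to 4 for other adipocyte genes, 0 to 5 for synthesis genes, 2 to 5 for regulators and for precursor genes, 0 to 1 for thermogenic genes and 0 to 2 for droplet genes. Synthesis calls were 0 when UCP1 KI replicate 2 or WT replicate 2 was dropped, 1 for WT replicate 1 and 5 for WT replicate 3, whose removal also gave the 5 regulator and 5 precursor calls. Droplet calls were 0 when UCP1 KI replicate 2 or WT replicate 2 was dropped and 2 for WT replicate 1, and dropping UCP1 KI replicate 1 gave 1 thermogenic call, as did dropping WT replicate 1 or 3. At least 10 counts in every pig gave 2 adipocyte calls. Testing all genes with any count gave 4 synthesis calls and 1 thermogenic call. Droplet genes had 2 calls with library size only and 0 with the block. The replicate block also gave 2 calls among smooth muscle and pericyte markers and 1 among red blood cell markers, in place of 0, and moved the other counts of calls by at most 1.5 times. With library size only, 1 fibre and 1 macrophage marker were called, and leaving out UCP1 KI replicate 3 gave 1 macrophage call and leaving out WT replicate 1 gave 1 Schwann cell call. Deviations of same-numbered pigs from their group means correlated at 0.02, 0.07 and 0.23 over genes, so the numbers were not taken as pairs. *LEP* rests on 0 to 14 counts per pig, and *SCD*, *CIDEC* and *PLIN1* rest on 18 to 232 counts per pig.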

Other observations

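The tested genes with a symbol were ranked by their likeness to the adipocyte genes over the 6 pigs. By Pearson's r of log2 CPM with the mean of the 5 tested adipocyte genes, the highest included *TARS2*, *IP6K2*, *SRRT*, *AP1S3*, *NOVA1*, *SFRP5*, *DDX46* and *TYW5*, with r from 0.98 down to 0.95. These genes were picked for their r out of all those ranked, over 6 libraries, share the high value of WT replicate 2 and carry no test. *SFRP5*, a secreted Wnt antagonist known from adipose tissue, had r = 0.96 without WT replicate 2, and was at 2.23, 3.03 and 3.63 CPM in UCP1 KI pigs and 2.67, 10.04 and 5.24 CPM in WT pigs. Of the adipocyte genes themselves *PPARG* had r = 0.12 with this mean, of which it is a part, against 0.86 to 0.91 for the other 4.

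For the mean of the 4 lipogenic genes the 5 most similar genes were *RBMX2*, *TRNT1*, *WBP4*, *ATG7* and *MKS1*, with r between 0.98 and 0.99 over 6 pigs. This mean follows *ELOVL6* (r = 0.89) and *ACACA* (r = 0.75) more than *SCD* (r = -0.16) and *FASN* (r = -0.70). Each gene is a part of the mean, those with the widest spread weigh most, and no direction is read from *FASN*, whose pigs were 1.28-fold apart. The tested adipocyte genes, which are not part of this mean, had r from 0.97 for *CIDEC* to -0.26 for *PPARG*. Between them lay *ADIPOQ* and *PLIN1* at 0.84 and *FABP4* at 0.48.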
